A study of Mus musculus with 4 samples.

Results

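Il13ra1, Cish and Serpinb3a are a receptor chain, a feedback gene and a serpin gene tied to interleukin-4 (IL-4) signalling and its transcription factor STAT6. They were taken as the rows whose symbol in the authors' 2 deposited comparison tables is exactly one of these 3 names, which gave 3 of the 22206 transcript clusters on the array. Primary keratinocytes, the epithelial cells of the epidermis, came from male mice of unstated age, and RNA of their cultures was hybridised to 4 Clariom S arrays for mouse, 1 per group. The groups were HMGB1 knockout (KO) with IL-4, KO untreated, wild type (WT) with IL-4 and WT untreated. Treated dishes had recombinant IL-4 at 100 ng/ml for 12 h in EpiLife medium, and untreated dishes had the same medium alone. K5-HMGB1 is the design text's name for the mutant line. The sources used here do not give the making of that allele, the strain or the number of animals behind a culture.

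IL-4 signals through the IL-4 receptor alpha chain, which pairs either with the common gamma chain, encoded by Il2rg, or with the IL-13 receptor alpha 1 chain, encoded by Il13ra1. The second pair also binds IL-13 and is the form known from epithelial cells. The receptors act through JAK kinases and TYK2, and STAT6 then enters the nucleus. Cish encodes an SH2 protein of the suppressor of cytokine signalling (SOCS) family, a feedback inhibitor best known as a target of STAT5. Serpinb3a encodes a clade B serpin, a mostly intracellular protease inhibitor. Its human relatives SERPINB3 and SERPINB4, the squamous cell carcinoma antigens, are known to be induced by IL-4 and IL-13 in human keratinocytes.

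The DNA just before each gene is shown because STAT factors bind a short palindrome there in some of their targets. Sequences are from RefSeq on GRCm38.p6, given 5′ to 3′ on the gene's own strand, and all 3 genes matched. Each window of 250 bases before to 50 bases after the annotated start was searched for TTCNNNGAA, the STAT5-type palindrome, and TTCNNNNGAA, the STAT6-type one. Both read the same on either strand. In Cish, at chr9:107296654-107296683 (plus strand), a stretch of 30 bases across the start holds 2 matches to TTCNNNGAA, in capitals, at bases 1 to 9 and 12 to 20 counted from the start.
Cish: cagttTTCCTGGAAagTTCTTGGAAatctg
At least 2 such matches occur in 150 of 32851 promoter windows (0.457%), and at least 1 in 8.30%. TTCNNNNGAA occurs in 6.95% of windows and not in that of Cish. The windows of Il13ra1 and Serpinb3a hold neither run of letters. The 250 bases before Il13ra1, chrX:36111858-36112107 (plus strand), are shown as the region before the gene with the clearest IL-4 difference, and hold 70.8% G and C.
Il13ra1: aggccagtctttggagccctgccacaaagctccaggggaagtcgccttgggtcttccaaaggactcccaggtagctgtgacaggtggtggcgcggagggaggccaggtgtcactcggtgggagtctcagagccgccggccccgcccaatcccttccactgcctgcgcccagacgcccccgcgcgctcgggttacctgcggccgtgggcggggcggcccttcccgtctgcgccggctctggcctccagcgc
A match is a run of letters and was not tested for binding.

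The values are the authors' log2 values from RMA, a method that corrects background, makes arrays alike and summarises probes. With 1 array per group no difference has a replicate check or a p-value, and precision is limited by that number. "Rose", "fell", "higher" and "lower" are used of differences of at least 2-fold, 1 on the log2 scale. Counts are over the 11854 clusters whose highest value reached the median cluster value, 5.13, and all 3 genes did. The 95th percentile of 5222 negative control rows was 9.21, and the size of a difference is uncertain where either value lies under it. The targeted gene Hmgb1 had log2 values of 7.60 and 7.97 in the KO arrays with and without IL-4, against 14.17 and 14.71 in the WT arrays. Of 9 basal keratinocyte markers 1 was named, Itgb4, the integrin beta 4 chain. Its log2 value was 16.49 in KO with IL-4 and 15.52 in KO untreated, and 16.59 in WT with IL-4 and 14.96 in WT untreated, with a difference of 0.97 in KO, under 2-fold, and a rise of 1.63 in WT. All 6 suprabasal markers were named. Markers of other cells were named for 1 of 7 fibroblast, 4 of 6 melanocyte, 1 of 9 leukocyte and 1 of 3 endothelial genes, and the others could not be looked up because only the 2 tables pair clusters with symbols.

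The tables list clusters that differ at least 2-fold between the WT arrays, or between the IL-4 arrays. All 3 genes are in the first and Cish is also in the second. The WT IL-4 differences, and the Cish difference between the genotypes with IL-4, are therefore descriptions of what brought the genes into view. The KO response to IL-4 shares no array with the WT response. For Cish, however, the KO IL-4 array entered its choice through the second table, so its KO response is not free of that choice. The untreated genotype difference shares the WT untreated array with the WT response.

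**Figure D1:**
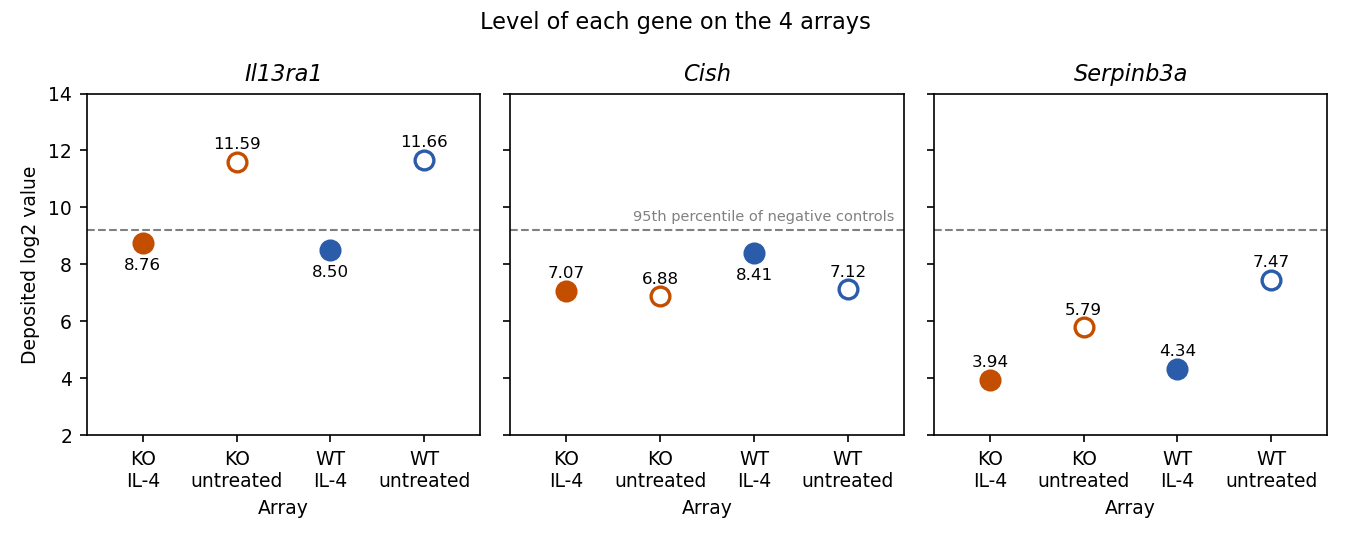
Deposited log2 value (vertical axis) of Il13ra1, Cish and Serpinb3a on each of the 4 arrays, with filled points for IL-4 and open points for untreated, and no error bars because each group has 1 array. Il13ra1 is above the dashed line, the 95th percentile of the negative controls at 9.21, on both untreated arrays, and every Cish and Serpinb3a value lies under it.

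Il13ra1, the chain that lets epithelial cells respond to IL-4 and IL-13, fell with IL-4 in both genotypes. It lies on chromosome X, 36112108 to 36171262 in GRCm38, and was measured by cluster TC0X00000316.mm.2. Its log2 value was 8.76 in KO with IL-4 and 11.59 in KO untreated. It was 8.50 in WT with IL-4 and 11.66 in WT untreated. In each genotype the IL-4 array was the lower one, with little between-genotype distance.

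The IL-4 minus untreated difference of Il13ra1 was -2.83 in KO and -3.15 in WT. The IL-4 values lie under the negative control line of 9.21, so its size is uncertain. With values under the line raised to it, Il13ra1 was at least 5.20-fold lower with IL-4 in KO and at least 5.43-fold lower in WT. Of all clusters above the level filter, 18.3% differed at least 2-fold in KO and 19.9% in WT. The falls made up 9.33% in KO and 9.26% in WT, and 6.11% fell in both. A fall as large as that of Il13ra1 was seen for 183 of the 11854 clusters in KO (1.54%) and 184 in WT (1.55%). Of the negative control rows, 2.37% in KO and 2.03% in WT differed as much in either direction.

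Between genotypes Il13ra1 differed little. KO minus WT was 0.25 with IL-4 and -0.06 untreated, and 24.9% and 43.9% of clusters differed as much in those directions. The KO response minus the WT response was 0.32, and 10.4% of clusters had responses that differed at least 2-fold. Neither genotype difference reached 2-fold, where 5.48% of clusters with IL-4 and 4.50% untreated did so in either direction. Without replicates, a smaller difference between the genotypes could not be told from the spread between cultures.

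The fall of Il13ra1 ran beside a fall of suprabasal differentiation markers in the same cultures. All 6 of these, Krt1, Krt10, Lor, Ivl, Flg and Krtdap, fell in both genotypes, with median differences of -4.40 in KO and -5.33 in WT. Over all clusters 9.33% fell in KO and 9.26% in WT, and 6.11% fell in both. All 6 had been named because they differed 2-fold in WT, so the WT count and median were shaped by the naming. Of the 1069 named clusters that fell in WT, 65.8% also fell in KO. Their summed linear level, given as log2, was 14.74 with IL-4 and 19.11 untreated in KO, and 14.44 with IL-4 and 19.14 untreated in WT. The IL-4 values of Krt1, Krt10 and Lor lay under 9.21 in both genotypes, so the sizes of their falls, and of the medians, are uncertain. The untreated values of Krt1, Flg and Krtdap lay above 16, the log2 of a 16-bit scanner's range, and whether their probes were saturated was not tested. In bulk RNA, fewer cells of a type and less RNA per cell cannot be told apart. The part of the differentiation markers in the Il13ra1 result was not tested.

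Il2rg, the common gamma chain of the other IL-4 receptor form, moved the opposite way in WT. Of 4 listed IL-4 and IL-13 receptor chains, only Il13ra1 and Il2rg could be named. Il2rg had a log2 value of 8.24 in KO with IL-4 and 7.57 in KO untreated, against 9.56 in WT with IL-4 and 7.19 in WT untreated. Only the WT IL-4 array was above the control line. The difference was 0.68 in KO, under 2-fold, and 2.37 in WT, and KO minus WT with IL-4 was -1.31. Il2rg is in both deposited tables, so the last 2 differences are descriptions of what brought it into view. The KO IL-4 array that enters its KO response was part of that choice. The level of the IL-4 receptor alpha chain is not analysed here, since the tables pair no cluster with Il4ra.

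Signalling genes downstream of the receptors were named for 4 of 21 listed JAK-STAT genes. In KO 3 of the 4 rose and 1 stayed under 2-fold, and in WT 3 rose and 1 fell. Over all clusters 8.93% rose in KO and 10.7% in WT, and of the named clusters that rose in WT 52.4% also rose in KO. Tyk2, the kinase bound by the IL-13 receptor alpha 1 chain, rose in both genotypes, by 1.08 in KO and 1.10 in WT, with all 4 values above the line. Stat2, a transcription factor of interferon signalling, rose by 1.11 in KO and 1.06 in WT, with all values under the line. Irs1, an adaptor that IL-4 receptors can use, rose by 2.43 in KO and 3.14 in WT, also under the line. Irs1 passed the level filter through its IL-4 arrays alone, so its rise was partly fixed by the filter. The median over the 4 named genes of the list was 1.09 in KO and 1.08 in WT, against 0.07 and 0.09 over all clusters above the filter. All 4 had been named because they differed 2-fold in WT, so the WT count and median carry no weight of their own. The KO median is also that of genes chosen in this way. Among the 1219 named clusters that rose in WT, the median difference in KO was 1.06.

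**Figure D2:**
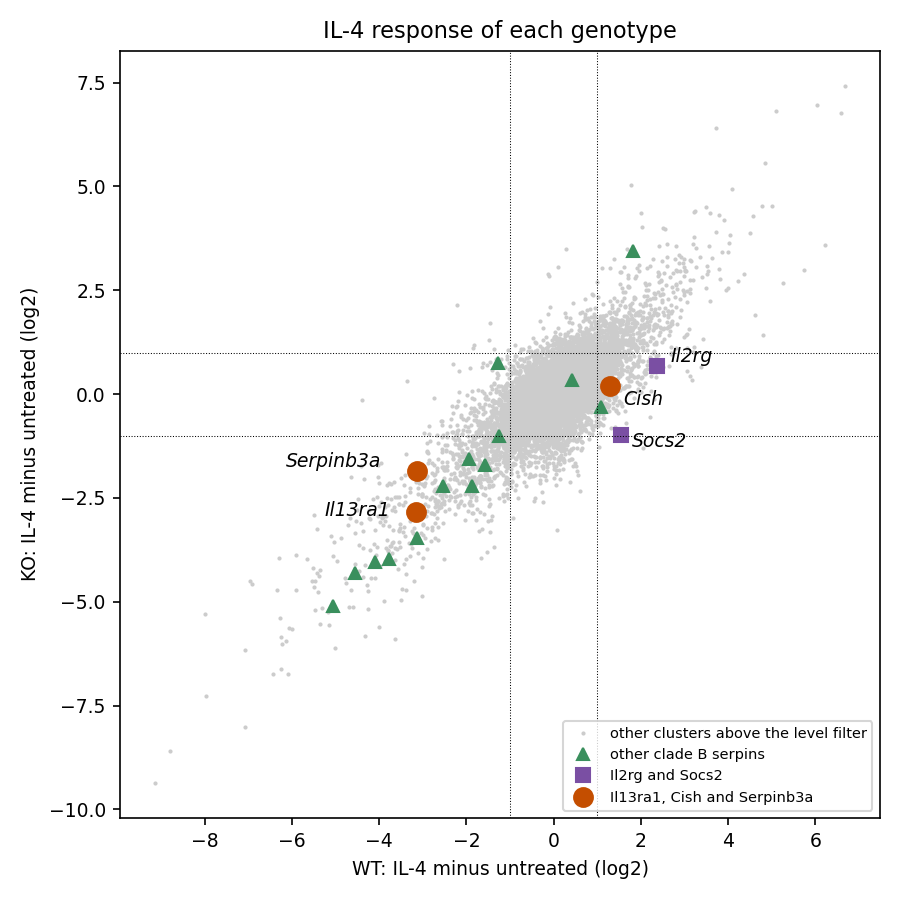
IL-4 minus untreated log2 difference in KO (vertical axis) against the same difference in WT (horizontal axis) for all 11854 clusters above the level filter, in grey, with named genes marked and dotted lines at 2-fold; 1 marked serpin, Serpinb9d, is under the filter. Il13ra1 and Serpinb3a lie in the lower left quadrant, while Cish, Il2rg and Socs2 pass the 2-fold line in WT and not in KO.

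Other cytokine receptors were divided in direction. Of 52 listed genes 15 were named and all passed the level filter. In KO 4 rose, 5 fell and 6 stayed under 2-fold, and in WT 6 rose, 7 fell and 2 stayed under it. Over all clusters 8.93% rose and 9.33% fell in KO, and 10.7% rose and 9.26% fell in WT. Of the 15, 13 had been named because they differed 2-fold in WT, so the WT count and median were shaped by the naming. The median difference was -0.07 in KO and -0.75 in WT, against 0.07 and 0.09 over all clusters above the filter. Chains of the IL-20 and IL-22 receptors were among the lowest. Il22ra1, a chain of the IL-22 and IL-24 receptors, fell, with differences of -2.61 in KO and -2.67 in WT. Il20ra, a chain of the IL-20 and IL-24 receptors, fell too, with -2.68 in KO and -2.04 in WT. Il22ra2, a soluble decoy receptor for IL-22, fell with -1.40 in KO and -2.90 in WT. Il22ra2 passed the level filter through its untreated arrays alone, and Il20ra through its KO untreated array alone. The falls of Il22ra2, and that of Il20ra in KO, were therefore partly fixed by the filter.

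All values of these 3 genes lie under 9.21, unlike those of Tnfrsf1a, the main receptor for tumour necrosis factor. Tnfrsf1a fell as well, with differences of -1.76 in KO and -1.87 in WT and all 4 values above 11. The receptors that rose most in WT were Il1r1, the signalling receptor for interleukin-1, with 1.63 in KO and 2.30 in WT, and Il18r1, a chain of the IL-18 receptor, with 1.05 in KO and 1.89 in WT. Il1rap, the accessory chain of the interleukin-1 receptor, differed by 0.63 in KO and rose by 1.55 in WT. Ifngr2, a chain of the interferon gamma receptor, rose by 1.67 in KO and 1.36 in WT.

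**Figure D3:**
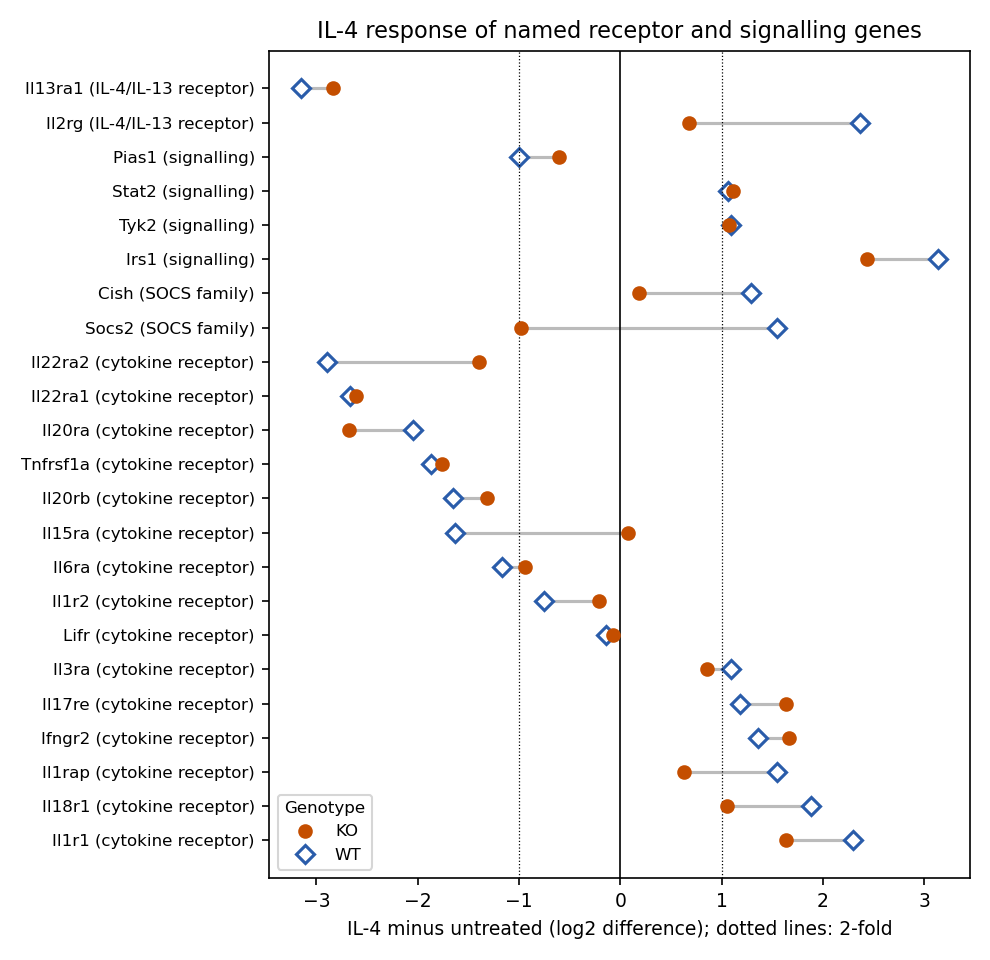
IL-4 minus untreated log2 difference (horizontal axis) in KO (filled circles) and WT (open diamonds) for each named gene of the receptor, signalling and SOCS lists, 1 array per group. Il13ra1 is the lowest value shown for either genotype, and Cish and Socs2 pass 2-fold upward in WT alone.

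Cish, the feedback inhibitor, rose with IL-4 in WT and did not pass 2-fold in KO. It lies on chromosome 9, 107296659 to 107302784, and was measured by cluster TC0900001365.mm.2. Its log2 value was 7.07 in KO with IL-4 and 6.88 in KO untreated. It was 8.41 in WT with IL-4 and 7.12 in WT untreated. The WT IL-4 array was the only high one, and the other 3 lay within 0.25 of each other.

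The IL-4 minus untreated difference of Cish was 0.19 in KO and 1.29 in WT, and the KO response minus the WT response was -1.10. KO minus WT was -1.34 with IL-4 and -0.25 untreated. The WT rise and the genotype difference with IL-4 both use the WT IL-4 array, so they are not separate observations. All 4 values lie under 9.21. Of the negative control rows 17.8% differed as much as Cish in the WT comparison and 15.3% in the comparison of the IL-4 arrays.

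The background was 10.7% of clusters higher in WT with IL-4, 8.93% in KO and 3.78% lower in KO than WT with IL-4. Among the 1219 named clusters that rose with IL-4 in WT, 52.4% also rose at least 2-fold in KO, and 20.4% had a response at least 2-fold smaller in KO. Over all clusters above the filter the last share was 5.80%. These clusters, Cish included, were chosen through the WT arrays that also enter the difference of responses. Cish was also chosen through the KO IL-4 array, which enters its KO response. In the same cultures 4 of 6 listed melanocyte markers (Dct, Tyrp1, Pmel and Tyr) were named. Their summed level, given as log2, was 13.64 with IL-4 and 13.12 untreated in KO, and 12.07 with IL-4 and 13.11 untreated in WT. Tyrp1 was the brightest of the 4, with 13.46 with IL-4 and 12.61 untreated in KO. Its IL-4 difference in KO was 0.85, against -0.27 for Dct, -1.58 for Pmel and -0.86 for Tyr. Tyr was under the level filter. The WT IL-4 array, the high one for Cish, was the low one for these 4 markers and for the only named fibroblast and leukocyte markers. For the only named endothelial marker, Kdr, that array was the highest, with 5.30. Kdr had 4.42 in KO with IL-4, 3.77 in KO untreated and 3.96 in WT untreated, all under the control line. Vim, the intermediate filament gene vimentin, had log2 values of 11.52 with IL-4 and 11.41 untreated in KO, against 9.54 with IL-4 and 10.28 untreated in WT, and was higher in KO by 1.98 with IL-4 and 1.13 untreated. Kit, a receptor of mast cells and melanocytes, had 6.90 with IL-4 and 6.11 untreated in KO, against 5.44 with IL-4 and 6.89 untreated in WT. The part of these markers in the Cish result was not tested.

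Socs2, the other named gene of 8 on the SOCS family list, had a larger genotype difference in its response. SOCS2 is known as a feedback inhibitor of growth hormone signalling. Socs2 had log2 values of 7.19 in KO with IL-4 and 8.17 in KO untreated, against 8.39 in WT with IL-4 and 6.84 in WT untreated. With IL-4 it was the KO array, and untreated the WT array, that was lower. The IL-4 difference was -0.98 in KO, just under 2-fold, and 1.55 in WT, so the KO response minus the WT response was -2.53. KO minus WT was -1.20 with IL-4 and 1.32 untreated. Every value lies under the line, as for Cish. Socs2 and Cish are each in both deposited tables, which share the WT IL-4 array. The second table also uses the KO IL-4 array, which enters their KO responses.

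Of 36 listed IL-4 and STAT6 target genes 5 were named, and 3 of these passed the level filter. Il24, a cytokine of the IL-20 family, rose in both genotypes, by 7.43 in KO and 6.68 in WT, from untreated values under the line. Bcl2l1, an inhibitor of cell death, differed by 0.85 in KO and rose by 1.06 in WT, with every value above 11. Fetub differed by -0.68 in KO and fell by 1.67 in WT, under the line. Fetub passed the level filter through its WT untreated array alone, so its WT fall was partly fixed by the filter. Car2, a carbonic anhydrase, and Tnfsf18, a ligand of the tumour necrosis factor family, were under the level filter, with differences of 1.55 and -0.76 in KO and 2.49 and -1.28 in WT.

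Serpinb3a fell with IL-4 in both genotypes, from values that were already low. It lies on chromosome 1, 107045587 to 107052303, on the minus strand, and was measured by cluster TC0100002903.mm.2. Its log2 value was 3.94 in KO with IL-4 and 5.79 in KO untreated. It was 4.34 in WT with IL-4 and 7.47 in WT untreated. Within each genotype the IL-4 value was below the untreated value, and the WT untreated array was the highest.

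The IL-4 minus untreated difference of Serpinb3a was -1.85 in KO and -3.13 in WT. KO minus WT was -0.40 with IL-4 and -1.68 untreated, so the KO response minus the WT response was 1.29. All 4 values lie under 9.21. Of the negative control rows, 25.4% in KO and 32.2% in WT lay below Serpinb3a with IL-4, and 63.6% in KO and 85.4% in WT did so untreated. With IL-4 the gene was therefore within the lower part of the control rows in both genotypes.

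An untreated KO minus WT difference as low as that of Serpinb3a was seen for 79 of the 11854 clusters (0.666%), where 3.16% were at least 2-fold lower. Of the negative control rows 7.97% differed as much. Among the 1069 named WT fallers, 20.0% were at least 2-fold lower in untreated KO and 23.9% had a response higher in KO by at least 2-fold. The corresponding share of a higher response over all clusters was 4.59%. Both shares use the WT untreated array through which these clusters, Serpinb3a included, had been chosen.

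Serpinb3a has close copies, and the sources used here do not say which of them its probes distinguish. Serpinb3b lies on the same chromosome and strand, and the 226 bases in which the upstream windows of the 2 genes align are 92.5% identical. They are shown as a measure of how alike the DNA before the copies is, with the 17 substituted bases in capitals. This DNA lies before the annotated starts, and the likeness of the transcripts, which probes bind, was not measured. The stretch for Serpinb3a is chr1:107052328-107052553 and that for Serpinb3b is chr1:107161115-107161340.
Serpinb3a: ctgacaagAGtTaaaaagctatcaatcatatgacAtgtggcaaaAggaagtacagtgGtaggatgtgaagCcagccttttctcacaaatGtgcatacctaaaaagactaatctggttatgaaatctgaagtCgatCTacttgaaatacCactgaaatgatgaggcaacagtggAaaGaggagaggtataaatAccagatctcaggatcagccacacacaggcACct
Serpinb3b: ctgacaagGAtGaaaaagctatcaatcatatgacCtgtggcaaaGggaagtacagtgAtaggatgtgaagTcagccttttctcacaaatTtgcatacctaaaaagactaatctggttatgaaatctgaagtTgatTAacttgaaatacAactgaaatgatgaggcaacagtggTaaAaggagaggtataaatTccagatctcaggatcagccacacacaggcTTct
The aligned stretches of Serpinb3a and Serpinb3c were 94.0% identical over 216 bases. Values of these genes are uncertain where probes could bind the RNA of another copy.

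Serpinb3b fell in both genotypes as well. Its log2 value was 4.63 in KO with IL-4 and 8.61 in KO untreated, against 5.35 in WT with IL-4 and 9.12 in WT untreated. The IL-4 difference was -3.97 in KO and -3.77 in WT, all from values under the line. KO minus WT untreated was -0.51, under 2-fold, where that of Serpinb3a was -1.68. The genotype difference of Serpinb3a was not seen at 2-fold in its copy, and the difference between the copies was not tested.

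Most of the clade B serpins that could be named fell with IL-4. Of 27 listed genes 15 were named and 14 passed the level filter. Of those 14, 11 fell and 1 rose in KO, and 11 fell and 2 rose in WT. Over all clusters 8.93% rose and 9.33% fell in KO, and 10.7% rose and 9.26% fell in WT. The median over all 15 was -1.85 in KO and -1.94 in WT, against the same 0.07 and 0.09 over all clusters. Of the 15, 14 had been named because they differed 2-fold in WT, so the WT count and median were shaped by the naming. All 9 named serpins of chromosome 1, Serpinb3a included, fell in both genotypes, with medians of -2.22 in KO and -3.12 in WT. Of the 9, 4 (Serpinb3a, Serpinb3b, Serpinb7 and Serpinb12) had all values under 9.21, so their differences become 0 when values are raised to that line. Serpinb3a and Serpinb7 passed the level filter through their untreated arrays alone, so their fall was partly fixed by the filter. All 9 had been named through the WT arrays, and 703 of the 1069 named WT fallers (65.8%) fell at least 2-fold in KO. The 9 lie on one chromosome and some are close copies, so they are not independent of each other. The serpins fell on the same arrays as the 6 suprabasal markers, whose medians were -4.40 in KO and -5.33 in WT. Genotype differences of those markers were mixed, with an untreated KO minus WT median of -0.08 and 3 of the 6 above 0. Lor, the cornified envelope gene loricrin, was -1.53 untreated, with a KO response minus WT response of 2.58. Krt10 was 1.97 untreated, with a KO response minus WT response of -0.07. With IL-4 the KO minus WT difference of Lor was 1.05, where that of Serpinb3a was -0.40. The part of the differentiation markers in the serpin results was not tested.

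Serpinb10 had differences of -5.10 in KO and -5.05 in WT. Serpinb11 had -4.30 in KO and -4.56 in WT, and the untreated values of both were above 10. The IL-4 values of both genes lay under 9.21 in KO and in WT, so the sizes of these differences are uncertain. Serpinb5, known as maspin, fell just past 2-fold in KO and by 1.26 in WT, at levels of 15.08 to 16.46, with both untreated values above 16. The remaining chromosome 1 genes, listed after their values were seen, were Serpinb2, Serpinb7, Serpinb8 and Serpinb12. Serpinb2, plasminogen activator inhibitor 2, fell with differences of -1.70 in KO and -1.57 in WT, at levels above 16. Saturation of the probes of Serpinb5 and Serpinb2 was not tested. The differences of Serpinb7, Serpinb8 and Serpinb12 lay between -3.47 and -2.20 in KO and between -3.12 and -1.86 in WT.

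The 6 named serpins of chromosome 13 were mixed, and 2 of those above the level filter fell in each genotype. Over all clusters 9.33% fell in KO and 9.26% in WT. Serpinb9d, under the filter, differed by 0.76 in KO and -1.28 in WT. Serpinb6c had differences of -4.04 in KO and -4.10 in WT. Serpinb9b rose by 3.45 in KO and 1.81 in WT, and with IL-4 its log2 value was 9.96 in KO, against 7.96 in WT, where 1.7% of clusters were higher by at least 2-fold. Serpinb6b differed by -0.32 in KO and rose by 1.10 in WT. Serpinb9, an inhibitor of the cytotoxic protease granzyme B, differed by 0.34 in KO and 0.42 in WT, and was higher in KO by 1.26 with IL-4 and 1.35 untreated.

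**Figure D4:**
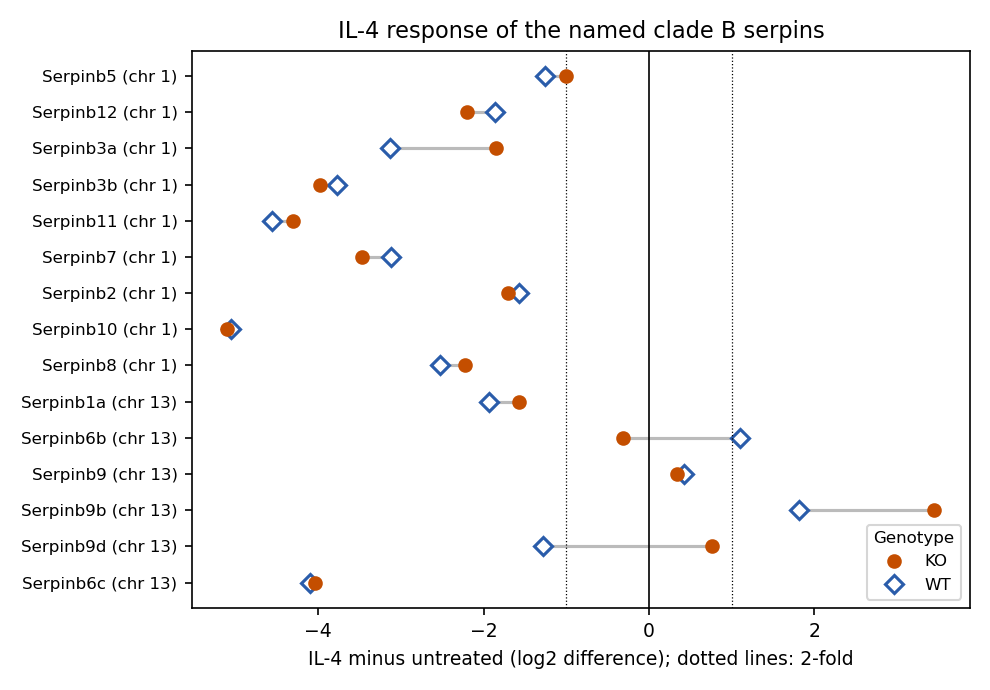
IL-4 minus untreated log2 difference (horizontal axis) in KO (filled circles) and WT (open diamonds) for the 15 named clade B serpins, ordered by chromosome and position, 1 array per group. All 9 genes of chromosome 1 lie left of the 2-fold line at -1 in both genotypes, and the 6 of chromosome 13 lie on both sides of 0.

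The genes next to the 3 members that could be named gave no common direction outside the serpin cluster. Within 500 kb of Serpinb3a, 8 of 13 protein-coding genes were named. The 7 serpins among them fell in both genotypes, where 6.11% of all clusters did so. Bcl2, an inhibitor of cell death, rose by 2.30 in KO and 2.21 in WT. Within the same distance of Cish, 3 of 27 were named. Of these Sema3f, a secreted semaphorin, fell with -2.03 in KO and -1.47 in WT, and Gnai2, a G protein subunit, differed by 0.84 in KO and rose by 1.26 in WT. Dock3 differed by 0.82 in KO and -0.25 in WT. Near Il13ra1, 2 of 6 were named: Dock11 differed by -0.12 in KO and rose by 1.06 in WT, and Gm14569 was under the level filter. These neighbours were chosen by position after the values of the 3 genes were seen. They could be named only where they differed 2-fold between the WT arrays or between the IL-4 arrays. Their differences were therefore shaped by the naming, and the direction of the neighbours without a name is not known here.

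The named genes with the most similar profiles were found by the Euclidean distance between 4-array log2 profiles, each centred on its own mean. Nearest to Il13ra1 were the signalling ligand Wnt3 (distance 0.17), the membrane protease Tmprss13 (0.17) and the actin-binding gene Ablim1 (0.18). Nearest to Cish were Tulp3 (0.07), Igsf9 (0.13) and Tcf19 (0.14). For Serpinb3a they were Rhov (0.13), Lgalsl (0.22) and the connexin gene Gjb2 (0.26).

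Gjb2 had log2 values of 8.84 in KO with IL-4 and 10.91 in KO untreated, against 9.15 in WT with IL-4 and 12.28 in WT untreated. Lgalsl had all values between 11.43 and 15.04, and was -1.63 in untreated KO minus WT. Rhov, the nearest to Serpinb3a, had every value under the control line, from 4.46 to 7.81. The genes closest to Cish were dim like it, except that Igsf9 reached 9.44 in WT with IL-4. Tmprss13 and Ablim1 had every value above 10, while Wnt3, the nearest to Il13ra1, had every value under the line, from 3.67 to 6.74. These genes were picked for their likeness, so sharing a pattern is no separate observation. Each likeness is over 4 arrays and is a description.

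**Figure D5:**
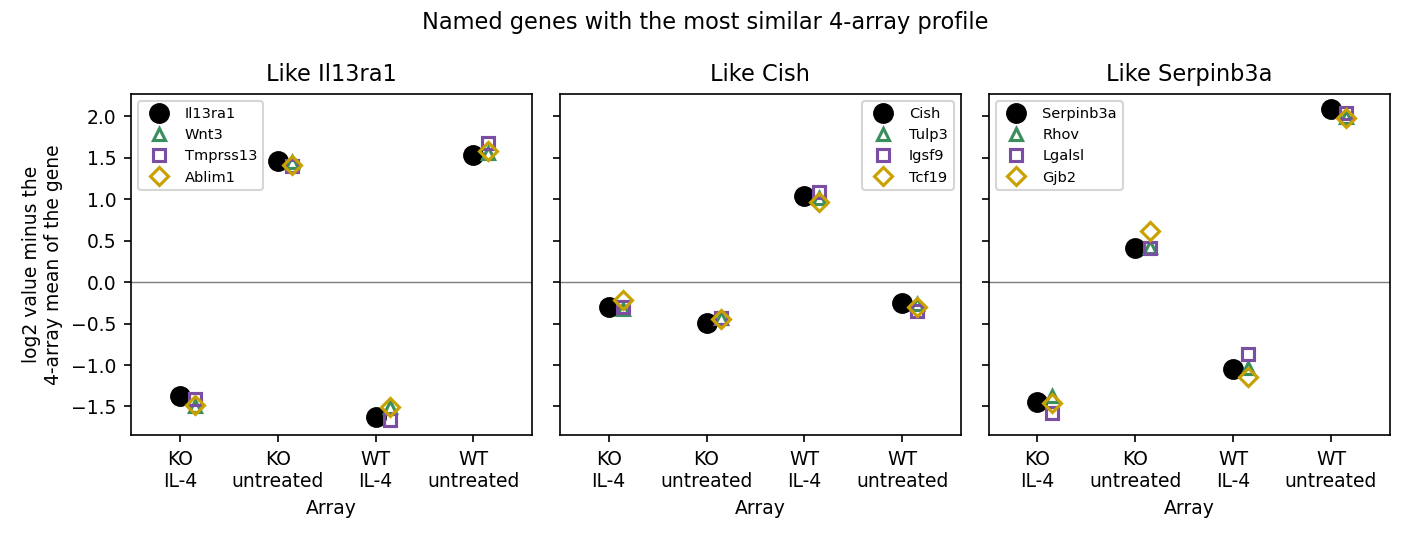
log2 value minus the gene's own mean over 4 arrays (vertical axis) on each array for Il13ra1, Cish and Serpinb3a (filled circles) and the 3 named genes nearest to each (open symbols, set slightly to the right). The Il13ra1 group is low on both IL-4 arrays, the Cish group is high on the WT IL-4 array alone, and the Serpinb3a group is highest on the WT untreated array.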

How the data were processed

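The authors deposited log2 expression values of 4 arrays, made by RMA in Affymetrix Expression Console 1.4 per the submitters' processing notes. They also deposited 2 tables of clusters that differ at least 2-fold, with log2 values and a signed fold change. Per the file headers, clusters were annotated with na36 on mm10. A second program, Exon Array Computational Tool, appears in the design text. Scanner files were not used here.

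Differences were taken between deposited log2 values, IL-4 minus untreated and KO minus WT, and no p-value was computed with 1 array per group. Gene symbols came from the 2 tables, which pair 3059 clusters with 1 symbol, and 8 symbols on several clusters were not used. The signed fold changes of the tables were not used. Coordinates and promoter sequences came from the RefSeq annotation of GRCm38.p6, the assembly of mm10. The calling step was tested on simulated data. Python 3.11.15, numpy 2.4.6, pandas 2.3.3, biopython 1.88 and limma 3.58.1 in R 4.3.3 were used. The alternatives were other between-array scalings, level filters, thresholds and a floor at the negative control line.

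The genes named were the 3 members, Hmgb1, listed genes paired alone with a cluster (from lists with over 8, the 4 highest and 4 lowest in WT), and the 3 nearest profiles. Outside that rule, positional neighbours, Il15ra, Serpinb9d, 4 serpins of chromosome 1 and markers of other cell types were named after their values were seen. Members and lists were chosen with earlier results of these data known.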

Additional observations from a re-analysis of the deposited data

Results flagged for a closer look

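Several listed genes had IL-4 differences of opposite sign in the 2 genotypes, with responses that differed at least 2-fold. With 1 array per group the difference itself was not tested. The KO response minus the WT response was -2.53 for Socs2, with -0.98 in KO and 1.55 in WT. It was -1.41 for Serpinb6b, with -0.32 in KO and 1.10 in WT. It was 1.71 for Il15ra, the private chain of the IL-15 receptor, with 0.07 in KO and -1.63 in WT, a gene named after its values were seen. It was 2.24 for Kit, the leukocyte marker, with 0.78 in KO and -1.45 in WT. It was 1.57 for Tyrp1, a pigment enzyme and melanocyte marker, with 0.85 in KO and -0.72 in WT, both under 2-fold. All values of Tyrp1 were above 11, while those of Socs2, Serpinb6b, Il15ra and Kit lie under the 95th percentile of the negative controls.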

How the results depend on the processing

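Another quantile normalization, cyclic loess and median centring left all 15 differences of the 3 genes on their side of 2-fold. Among those under 2-fold, KO minus WT untreated of Il13ra1 was 0.0042 after quantile normalization, against -0.06 as deposited, and the KO response of Cish was 0.10 under cyclic loess, against 0.19. The 4 differences that the authors' tables hold were on the same side of 2-fold. That was fixed in advance, since those tables list only clusters at least 2-fold different and give the same values rounded. With values under 9.21 raised to that line, the WT difference of Il13ra1 was -2.44, and the 7 differences of Cish and Serpinb3a that passed 2-fold became 0, since both genes lie wholly under it. Counts of clusters at least 2-fold different depended on the filter and threshold. A level filter at 9.21 gave 1374 for IL-4 in KO, 1465 for IL-4 in WT, 321 for KO minus WT with IL-4, 250 untreated and 564 for the difference of responses. At 1.5-fold the counts were 4451, 4604, 2335, 2022 and 3502, and at 4-fold 592, 693, 52, 39 and 93, in that order. Without a filter the difference of responses had 1943. A filter at the median of all rows, chosen after seeing the data, kept each count within 1.5 times. Counts of listed genes and the nearest profiles stayed within 1.5 times under their alternatives. No paired analysis was possible because the labels give no replicate numbers and the results come from no test. A fit of treatment with genotype as a block, which takes the difference between the responses as error, was not run. Signal near the negative controls limits the differences of Cish and Serpinb3a.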
